A study of Mus musculus with 11 samples.

Results

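The genes described are 39 enzymes and transporters of glycolysis, glycogen turnover and pyruvate entry into mitochondria, out of 25006 genes counted. They were taken from a list of gene symbols, each matched to 1 Ensembl gene, and the rule itself uses no measured value. All 39 passed the filter on low counts, which left 14779 genes to be tested. RNA came from the left ventricle of 11 mice, 1 stranded mRNA library per mouse. By the study's methods, MI mice gave infarcted ventricular tissue, and naive mice gave ventricle of about equal mass from a similar region. Naive (uninjured) hearts came from 2 control mice and 3 Vegfc-deficient mice, and hearts with myocardial infarction (MI) from 3 mice of each kind, collected 9 days after permanent ligation of the left anterior descending artery. Vegfc-deficient mice were Vegfc fl/fl ; LysMCre, in which Cre is driven from the Lyz2 locus and deletes the floxed gene in myeloid cells, neutrophils included. Control mice are Vegfc fl/fl in the genotype field of the labels, whereas the labels' protocol and the study's methods name LysMCre mice as controls. The age of the mice is not given in the sources used here.

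Glycolysis splits glucose into pyruvate in the cytosol. Pyruvate is then either reduced to lactate and exported or carried into mitochondria and converted to acetyl-CoA by the pyruvate dehydrogenase complex. Many of these steps are served by several genes, of which one is the main form in striated muscle and the others are typical of most other cells, of neurons or of blood cells. The adult heart takes up glucose through the insulin-responsive transporter GLUT4, stores glycogen, and oxidises lactate with the heart form of lactate dehydrogenase.

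Total counts were 10824989 to 26782728 per library, and 3 counts corresponded to 0.101 to 0.363 counts per 1000000 counts (CPM) after scaling by the trimmed mean of M values (TMM). Levels below are TMM-scaled CPM, and within a group the libraries are always given in the same order: M45 and M44 for naive control, M34, M150 and M149 for naive Vegfc-deficient, M38, M006 and M40 for MI control, and M35, M913 and M900 for MI Vegfc-deficient hearts. Several facts of these libraries touch the values that follow. The summed level of 12 cardiomyocyte markers was 86251 to 120346 CPM in naive and 3197 to 31032 CPM in MI libraries, lowest in M40 and highest in M35. None of these markers was at 0 in every library. Vegfc itself did not separate the genotypes. Lyz2, the locus that carries the Cre, was at 2121 to 5380 CPM in the 5 control libraries. Of the naive libraries labelled Vegfc-deficient, M149 was inside that range at 4565 CPM and the other 2 held 245 and 72.5 CPM. The MI Vegfc-deficient libraries held 1392 (M35), 12.4 (M913) and 203 CPM (M900). Xist reached 188 to 403 CPM in MI and at most 11.8 CPM in naive libraries, while Ddx3y was at most 0.503 CPM in MI and at least 29.4 CPM in naive libraries. A difference in sex and the effect of MI therefore cannot be told apart. Of the 39 genes, Pfkfb1, Pgk1 and Pdha1 lie on chromosome X.

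After MI most of these genes were lower. In control hearts 25 of the 39 were lower and 6 higher with an adjusted p under 0.05 (quasi-likelihood test of edgeR), and 8 did not pass. Over all 14779 genes tested, 50.4% passed in this comparison, 24.1% lower and 26.3% higher. Without naive control M45 or M44 the number called in control hearts was 28 and 29 of the 39 and 4574 and 4880 of all genes, where it had been 31 and 7450. In Vegfc-deficient hearts 23 were lower, 8 higher and 8 did not pass, beside 57.6% over all genes, 27.7% lower and 30.0% higher. DESeq2 called 31 of the 39 in each genotype, beside 52.2% of all genes in control and 59.5% in Vegfc-deficient hearts. The median log2 fold change of the 39 genes was -1.28 in control and -1.08 in Vegfc-deficient hearts, against 0.13 and 0.097 over all genes. The pair of comparisons share no library, but both come from 1 fit of all 11 libraries with a shared filter, scaling and estimate of spread. 23 genes were lower in both and 6 were higher in both (Slc2a3, Pfkfb3, Pfkfb4, Aldoc, Eno2 and Slc16a3). Hk1 and Pkm were lower in control hearts alone and Slc2a1 and Pygl higher in Vegfc-deficient hearts alone, and Hk3, Pfkl, Pfkp, Gapdh, Pgam1 and Eno1 passed in neither. Scaled by library size alone, Slc2a1 and Pygl passed in control hearts and Eno1 in Vegfc-deficient hearts as well, and limma-voom also called Pfkl in control and Pfkp, Gapdh and Eno1 in Vegfc-deficient hearts. For the 23 genes all 6 MI libraries lay below all 5 naive libraries, as did 24.2% of all genes, and for the 6 genes all MI libraries lay above, as did 24.5% of all genes. In bulk tissue, fewer cells of a type and less RNA per cell cannot be told apart.

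**Figure D1:**
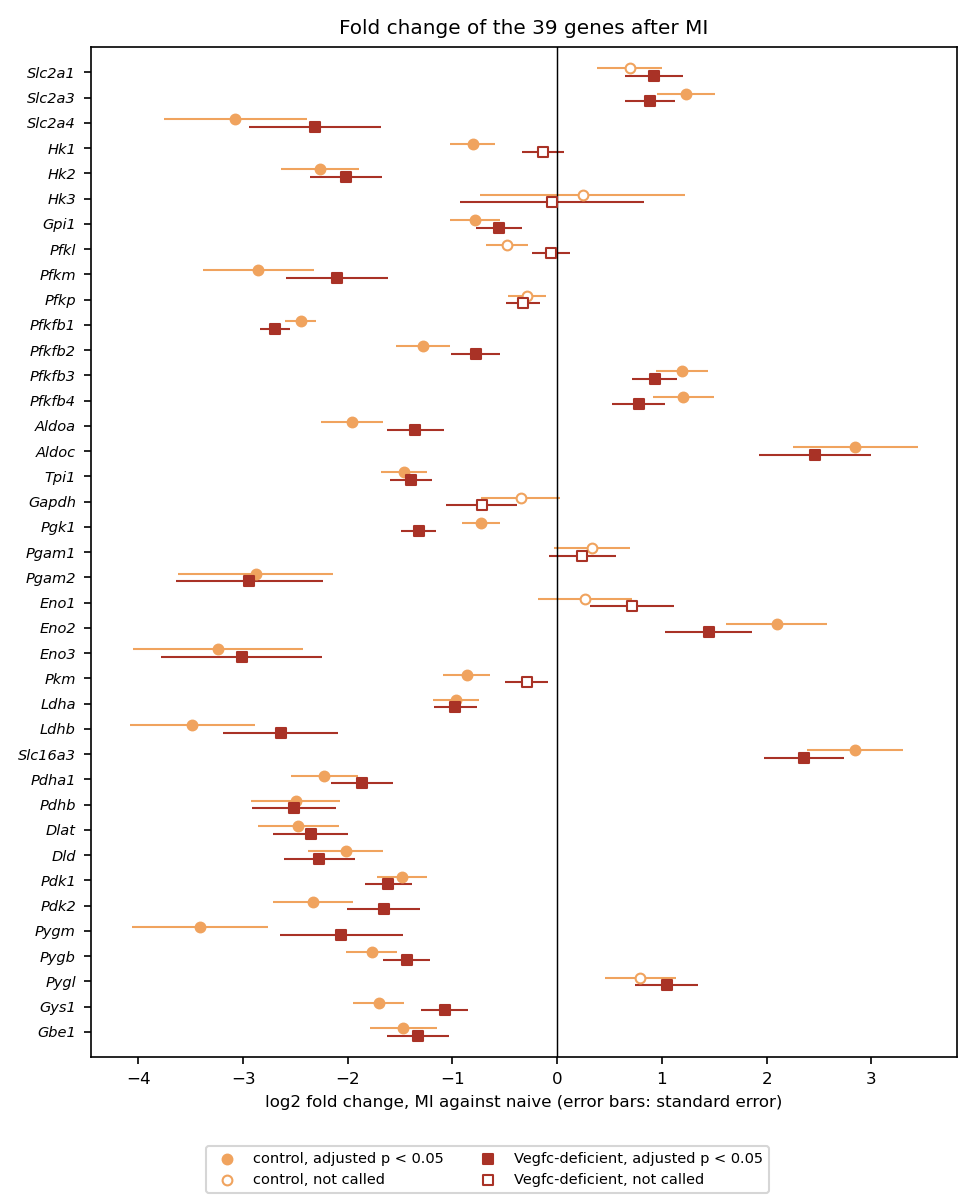
Log2 fold change after MI (x axis) of each of the 39 genes (y axis, ordered by role), for control hearts (circles) and Vegfc-deficient hearts (squares), with standard errors; filled symbols had an adjusted p under 0.05. The muscle and heart forms reach -3.48 (Ldhb, control hearts) and the largest rises are those of Aldoc and Slc16a3, at 2.85 in control hearts.

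Among the glucose and lactate transporters, Slc2a4 fell in both genotypes, Slc2a3 and Slc16a3 rose in both, and Slc2a1 passed as higher in Vegfc-deficient hearts only. Slc2a4 (ENSMUSG00000018566, chr11:69942539-69948188, minus strand), which encodes GLUT4 of muscle and fat, was at 289 and 281 CPM (naive control) and 279, 296 and 284 CPM (naive Vegfc-deficient). After MI it was at 54.9, 37.5 and 9.21 CPM (MI control) and 103, 48.7 and 20.8 CPM (MI Vegfc-deficient). The log2 fold change was -3.07 (SE 0.68, edgeR adjusted p = 0.00436) in control and -2.31 (SE 0.63, edgeR adjusted p = 0.00967) in Vegfc-deficient hearts. The MI level was thus 8.41-fold and 4.98-fold lower, with the naive libraries close together and the MI libraries spread over an 11.2-fold range. Without M38 the log2 fold change of Slc2a4 was -3.68 in control hearts, and without M35 it was -3.04 in Vegfc-deficient hearts. Slc2a1 (ENSMUSG00000028645, chromosome 4), the GLUT1 transporter of most tissues, was at 14.95 and 17.6 CPM in naive control, 14.2, 12.5 and 16.4 CPM in naive Vegfc-deficient, 28.03, 17.3 and 33.3 CPM in MI control and 17.9, 33.8 and 29.7 CPM in MI Vegfc-deficient libraries. This was a log2 fold change of 0.69 (SE 0.31, edgeR adjusted p = 0.087) in control and 0.92 (SE 0.28, edgeR adjusted p = 0.0158) in Vegfc-deficient hearts. Libraries M006 and M35 were the lowest of the MI libraries for Slc2a1 and overlapped or nearly reached the naive range. The call in Vegfc-deficient hearts was lost without M150, M913 or M900 (adjusted p = 0.0588, 0.078 and 0.0549 by edgeR), and without M006 the change in control hearts passed (adjusted p = 0.0242 by edgeR). Slc2a3 (ENSMUSG00000003153, chromosome 6), the high-affinity GLUT3 transporter known from neurons and white blood cells, was at 3.17 and 3.66 CPM in naive control, 3.58, 2.66 and 4.71 CPM in naive Vegfc-deficient, 7.78, 7.37 and 8.95 CPM in MI control and 5.64, 7.37 and 7.34 CPM in MI Vegfc-deficient libraries. Every MI library was above every naive library, with a log2 fold change of 1.23 (SE 0.28, edgeR adjusted p = 0.00457) in control and 0.89 (SE 0.24, edgeR adjusted p = 0.00948) in Vegfc-deficient hearts. Slc16a3 (ENSMUSG00000025161, chr11:120948480-120960868, plus strand), which encodes the lactate exporter MCT4, was at 4.35 and 6.07 CPM (naive control) and 7.97, 4.24 and 6.77 CPM (naive Vegfc-deficient). In MI hearts it was at 37.9, 22.9 and 51.5 CPM (MI control) and 18.9, 40.6 and 38.6 CPM (MI Vegfc-deficient), with no overlap. The log2 fold change was 2.85 (SE 0.46, edgeR adjusted p = 0.000912) in control and 2.36 (SE 0.38, edgeR adjusted p = 0.000568) in Vegfc-deficient hearts, a level 7.19-fold and 5.12-fold higher.

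Hexokinases trap glucose in the cell as glucose-6-phosphate. Hk2 (ENSMUSG00000000628, chromosome 6), the insulin-regulated form of muscle, was at 207 and 195 CPM in naive control, 217, 226 and 185 CPM in naive Vegfc-deficient, 61.2, 36.1 and 28.1 CPM in MI control and 77.9, 46.1 and 31.5 CPM in MI Vegfc-deficient libraries. It fell in both genotypes, with a log2 fold change of -2.27 (SE 0.37, edgeR adjusted p = 0.00099) in control and -2.02 (SE 0.35, edgeR adjusted p = 0.000777) in Vegfc-deficient hearts. Hk1 (ENSMUSG00000037012, chromosome 10), the form found in nearly all tissues, was at 90.3 and 102 CPM in naive control, 74.1, 89.2 and 73.6 CPM in naive Vegfc-deficient, 68.8, 46.2 and 49.8 CPM in MI control and 91.5, 65.5 and 58.5 CPM in MI Vegfc-deficient libraries. The change was -0.81 (SE 0.22, edgeR adjusted p = 0.0115) in control and -0.14 (SE 0.20, edgeR adjusted p = 0.574) in Vegfc-deficient hearts on the log2 scale, and MI Vegfc-deficient M35 lay inside the naive range. Without naive control M44 the call was lost (edgeR adjusted p = 0.081), as it was with scaling by library size alone (-0.37, edgeR adjusted p = 0.132). Hk3 (ENSMUSG00000025877, chromosome 13), a form of myeloid cells, was at 41.7 and 27.8 CPM in naive control, 8.54, 5.57 and 73.2 CPM in naive Vegfc-deficient, 71.9, 12.4 and 38.6 CPM in MI control and 14.1, 36.8 and 33.5 CPM in MI Vegfc-deficient libraries. The naive libraries spanned a 13.2-fold range for Hk3, with M149 the highest of all 11 libraries. Their order from low to high (M150, M34, M44, M45, M149) was also their order for Lyz2. The MI libraries did not keep to this, as M006 was the highest of them for Lyz2 (5380 CPM) and the lowest for Hk3 (12.4 CPM). The log2 fold change of Hk3 was 0.24 (SE 0.98, edgeR adjusted p = 0.85) in control and -0.05 (SE 0.87, edgeR adjusted p = 0.966) in Vegfc-deficient hearts. Without M149 that of Vegfc-deficient hearts was 1.98 (edgeR adjusted p = 0.0357), and the identity of M149 was not tested. Gpi1 (ENSMUSG00000036427, chromosome 7), which turns glucose-6-phosphate into fructose-6-phosphate, was at 339 to 495 CPM in naive and 221 to 335 CPM in MI libraries. Gpi1 changed by -0.78 (SE 0.24, edgeR adjusted p = 0.0202) in control and -0.56 (SE 0.22, edgeR adjusted p = 0.0486) in Vegfc-deficient hearts on the log2 scale, and this call was lost in 13 of the 22 alternatives tried for Vegfc-deficient hearts, among them the fit without M900 (adjusted p = 0.173 by edgeR), and in control hearts without M45, M44, M006 or M40 (adjusted p = 0.0776, 0.0962, 0.0643 and 0.0579 by edgeR) or with scaling by library size alone (-0.35, edgeR adjusted p = 0.179).

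Phosphofructokinase makes the committed step of glycolysis. Pfkm (ENSMUSG00000033065, chr15:98092589-98132451, plus strand), the muscle subunit, was at 834 and 823 CPM (naive control) and 705, 817 and 655 CPM (naive Vegfc-deficient). In MI hearts it was at 170.1, 118 and 54.9 CPM (MI control) and 296, 132 and 79.2 CPM (MI Vegfc-deficient). Both comparisons passed, with log2 fold changes of -2.86 (SE 0.53, edgeR adjusted p = 0.00178) in control and -2.10 (SE 0.49, edgeR adjusted p = 0.00431) in Vegfc-deficient hearts. M40 held the least Pfkm and M35 the most among MI libraries, and without M35 the log2 fold change in Vegfc-deficient hearts was -2.78. Pfkl (ENSMUSG00000020277, chromosome 10), the liver-type subunit, was at 95.8 and 118 CPM in naive control, 83.9, 98.04 and 75.6 CPM in naive Vegfc-deficient, 85.6, 60.3 and 83.6 CPM in MI control and 76.8, 98.4 and 71.3 CPM in MI Vegfc-deficient libraries. Pfkp (ENSMUSG00000021196, chromosome 13), the platelet-type subunit, was at 82.5 and 85.8 CPM in naive control, 93.7, 109 and 111 CPM in naive Vegfc-deficient, 82.6, 54.6 and 69.6 CPM in MI control and 96.1, 73.8 and 79.8 CPM in MI Vegfc-deficient libraries. Neither passed the test in either genotype, and their log2 fold changes were -0.48 (SE 0.20, edgeR adjusted p = 0.07) and -0.29 (SE 0.18, edgeR adjusted p = 0.209) in control and -0.06 (SE 0.18, edgeR adjusted p = 0.784) and -0.33 (SE 0.16, edgeR adjusted p = 0.11) in Vegfc-deficient hearts. Without MI control M38 both passed in control hearts (adjusted p = 0.0437 and 0.0495 by edgeR). Per kilobase of exon, Pfkm was at 248 CPM in naive control hearts, where Pfkl was at 15.99 CPM and Pfkp at 6.28 CPM. In MI control hearts the same values were 34.3, 11.5 and 5.14 CPM per kilobase, so that Pfkm still had the highest mean by this measure. Such levels depend on the length used. In CPM, Pfkm was above both other subunits in M38 and M006 and below both in M40 (54.9 CPM against 83.6 and 69.6 CPM).

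The 4 bifunctional enzymes that make and remove fructose-2,6-bisphosphate, the activator of phosphofructokinase, split by type. Pfkfb1 (ENSMUSG00000025271, chromosome X), the liver and skeletal muscle form, was at 22.7 and 22.03 CPM in naive control, 24.3, 25.7 and 25.9 CPM in naive Vegfc-deficient, 4.16, 3.88 and 4.22 CPM in MI control and 4.11, 4.27 and 3.35 CPM in MI Vegfc-deficient libraries. Its log2 fold change was -2.45 (SE 0.15, edgeR adjusted p = 4.38e-05) in control and -2.69 (SE 0.14, edgeR adjusted p = 7.18e-06) in Vegfc-deficient hearts, and it had the smallest adjusted p of the 39 genes in both comparisons. The 6 MI libraries agreed within a 1.27-fold range for Pfkfb1, against 9.71-fold for the cardiomyocyte marker sum. Pfkfb2 (ENSMUSG00000026409, chromosome 1), the heart form, was at 35.5 and 26.6 CPM in naive control, 34.6, 28.8 and 27.6 CPM in naive Vegfc-deficient, 11.1, 15.7 and 11.6 CPM in MI control and 24.2, 15.5 and 13.5 CPM in MI Vegfc-deficient libraries. It fell with a log2 fold change of -1.28 (SE 0.26, edgeR adjusted p = 0.00263) in control and -0.78 (SE 0.23, edgeR adjusted p = 0.0161) in Vegfc-deficient hearts. M35 lay just under the lowest naive library for Pfkfb2, and without any 1 of M34, M913 or M900 the call in Vegfc-deficient hearts was lost (adjusted p = 0.0582, 0.0558 and 0.0566 by edgeR), as it was with scaling by library size alone (-0.28, edgeR adjusted p = 0.319). Pfkfb3 (ENSMUSG00000026773, chr2:11471433-11554077, minus strand), the form induced by hypoxia and growth signals, was at 20.1 and 19.9 CPM (naive control) and 19.9, 19.6 and 24.9 CPM (naive Vegfc-deficient). In MI hearts Pfkfb3 was at 60.4, 31.5 and 45.3 CPM (MI control) and 36.8, 38.2 and 47.6 CPM (MI Vegfc-deficient). Pfkfb4 (ENSMUSG00000025648, chromosome 9), known from testis and also inducible by hypoxia, was at 14.8 and 14.98 CPM in naive control, 16.3, 11.5 and 18.6 CPM in naive Vegfc-deficient, 43.2, 25.1 and 34.5 CPM in MI control and 19.04, 30.7 and 30.1 CPM in MI Vegfc-deficient libraries. The rise of Pfkfb3 had a log2 fold change of 1.19 (SE 0.25, edgeR adjusted p = 0.00335) in control and 0.93 (SE 0.22, edgeR adjusted p = 0.00455) in Vegfc-deficient hearts, and that of Pfkfb4 one of 1.21 (SE 0.29, edgeR adjusted p = 0.00666) in control and 0.78 (SE 0.25, edgeR adjusted p = 0.0227) in Vegfc-deficient hearts. For Pfkfb4 library M35, at 19.04 CPM, was next to the highest naive library, M149 at 18.6 CPM, and the call in Vegfc-deficient hearts was lost without M150, M913 or M900 (adjusted p = 0.085, 0.102 and 0.0896 by edgeR) and the call in control hearts without M45 (adjusted p = 0.0507 by edgeR).

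**Figure D2:**
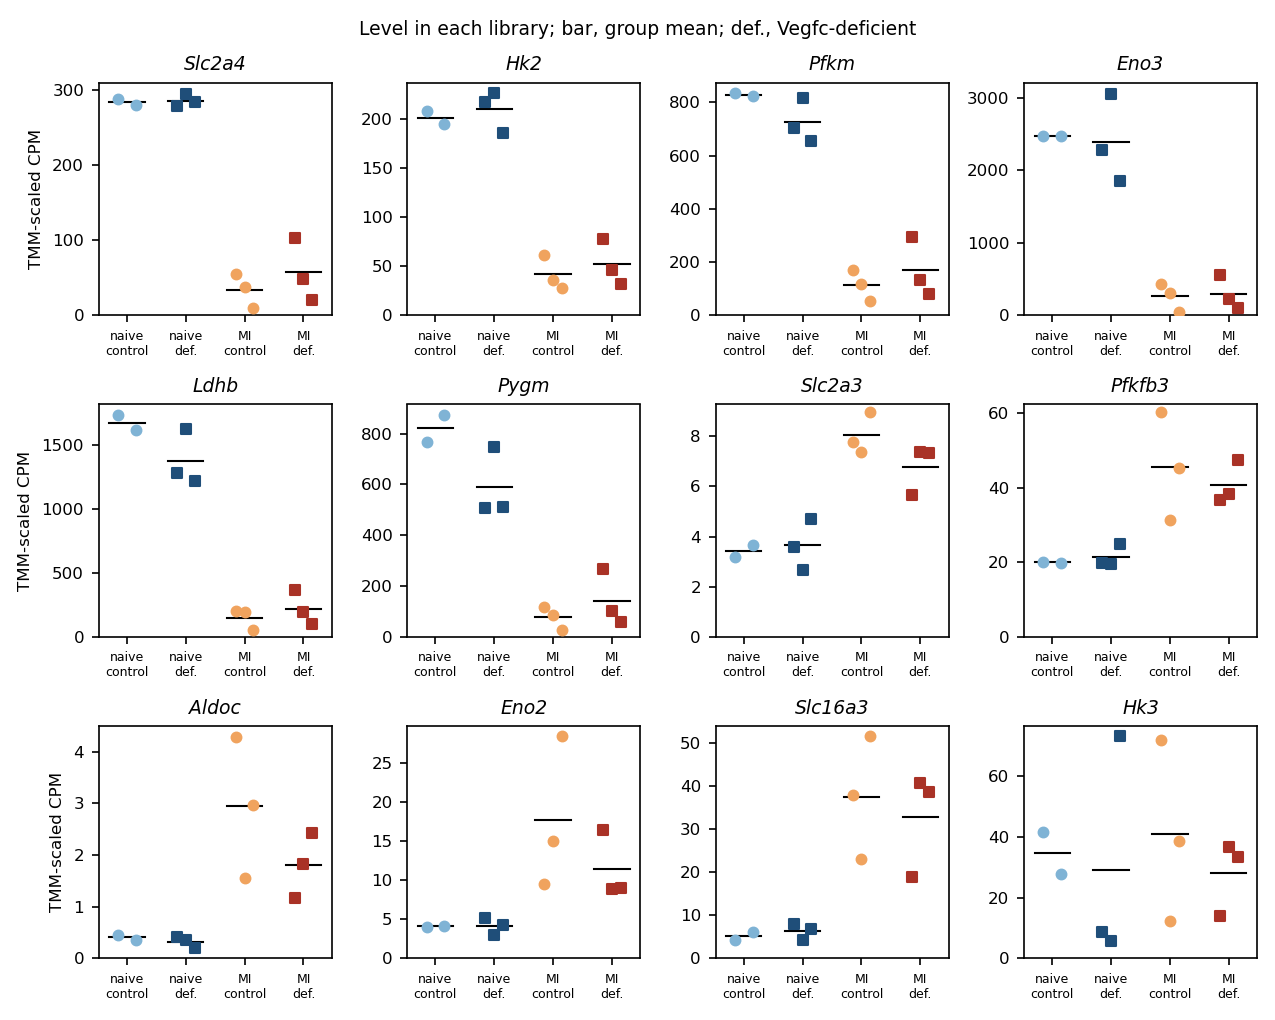
TMM-scaled CPM (y axis, from 0, a separate scale for each gene) of 12 of the 39 genes in each of the 11 libraries, by group (x axis), with the group mean as a bar. Slc2a4, Hk2, Pfkm, Eno3, Ldhb and Pygm are lower in every MI library than in any naive library, Slc2a3, Pfkfb3, Aldoc, Eno2 and Slc16a3 are higher, and Hk3 overlaps between all groups.

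Lower glycolysis begins with aldolase and triosephosphate isomerase. Aldoa (ENSMUSG00000030695, chromosome 7), the muscle and general aldolase, was at 2708 and 2806 CPM in naive control, 2137, 2776 and 2123 CPM in naive Vegfc-deficient, 856, 699 and 571 CPM in MI control and 1194, 906 and 651 CPM in MI Vegfc-deficient libraries. Aldoa fell, with a log2 fold change of -1.96 (SE 0.30, edgeR adjusted p = 0.00067) in control and -1.36 (SE 0.27, edgeR adjusted p = 0.00189) in Vegfc-deficient hearts. Aldoc (ENSMUSG00000017390, chr11:78322968-78327781, plus strand), the brain aldolase, was at 0.453 and 0.357 CPM (naive control) and 0.407, 0.363 and 0.196 CPM (naive Vegfc-deficient). These naive levels rest on 5 and 4 counts in control and 5, 3 and 2 counts in Vegfc-deficient libraries. In MI hearts it was at 4.29, 1.56 and 2.97 CPM (MI control) and 1.18, 1.82 and 2.43 CPM (MI Vegfc-deficient). From the summed counts, Aldoc was 7.77-fold higher after MI in control hearts (exact 95% counting interval 4.02 to 17.2) and 5.77-fold higher in Vegfc-deficient hearts (3.03 to 12.3), intervals that cover counting error only. The fitted log2 fold change of Aldoc was 2.85 (SE 0.59, edgeR adjusted p = 0.00309) in control and 2.47 (SE 0.53, edgeR adjusted p = 0.00277) in Vegfc-deficient hearts. Per kilobase, the mean level of Aldoc in MI control hearts was 0.902 CPM, where that of Aldoa was 243 CPM. Tpi1 (ENSMUSG00000023456, chromosome 6), which interconverts the triose phosphates, was at 1086 and 1025 CPM in naive control, 1006, 1106 and 854 CPM in naive Vegfc-deficient, 453, 328 and 367 CPM in MI control and 392, 430.1 and 306 CPM in MI Vegfc-deficient libraries. It fell with a log2 fold change of -1.46 (SE 0.22, edgeR adjusted p = 0.000646) in control and -1.39 (SE 0.20, edgeR adjusted p = 0.000299) in Vegfc-deficient hearts, and its MI libraries lay within a 1.48-fold range.

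Gapdh (ENSMUSG00000057666, chromosome 6), the dehydrogenase often used as a reference gene, was at 4.62 and 5.80 CPM in naive control, 6.998, 4.36 and 7.55 CPM in naive Vegfc-deficient, 2.74, 3.61 and 5.91 CPM in MI control and 4.88, 3.60 and 3.06 CPM in MI Vegfc-deficient libraries. The groups overlapped, and the log2 fold change was -0.35 (SE 0.38, edgeR adjusted p = 0.458) in control and -0.72 (SE 0.34, edgeR adjusted p = 0.0908) in Vegfc-deficient hearts. These levels are far below those of its neighbours in the pathway, Tpi1 and Aldoa. Of the 50-base windows of the longest Gapdh coding transcript, 84.2% occur with at most 1 mismatch in transcripts of other genes, among them 285 annotated pseudogenes. The share was 83.3% for Eno1, 67.96% for Pgk1, 59.4% for Ldhb, 56.3% for Pkm, 46.5% for Pdhb, 43.3% for Gpi1, 41.6% for Ldha and 41.5% for Pgam1. It was 29.9% for Aldoa, 25.3% for Pfkfb2 and 24.01% for Tpi1, and at most 3.60% for the other 27 genes. How reads with several matches were counted is not given in the sources used here, so the counts of these genes are uncertain, and the part of shared sequence in their levels was not tested. Among the 30 genes under 40%, 25 passed in control hearts (19 lower, 6 higher) and 26 in Vegfc-deficient hearts (18 lower, 8 higher), a restriction chosen after the data were seen. Over all genes tested, 50.4% and 57.6% passed, and the share among other genes under the same cut was not computed.

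Phosphoglycerate kinase, phosphoglycerate mutase, enolase and pyruvate kinase complete the path to pyruvate. Pgk1 (ENSMUSG00000062070, chromosome X), an X-linked kinase of nearly all cells, was at 34.8 and 33.4 CPM in naive control, 35.2, 49.02 and 33.04 CPM in naive Vegfc-deficient, 22.8, 17.5 and 21.5 CPM in MI control and 14.4, 16.9 and 15.5 CPM in MI Vegfc-deficient libraries. It fell with a log2 fold change of -0.73 (SE 0.18, edgeR adjusted p = 0.00791) in control and -1.32 (SE 0.17, edgeR adjusted p = 0.000151) in Vegfc-deficient hearts. Without naive control M45 the call in control hearts was lost (edgeR adjusted p = 0.0551), as it was with scaling by library size alone (-0.28, edgeR adjusted p = 0.137). Pgam2 (ENSMUSG00000020475, chromosome 11), the muscle mutase, was at 1128 and 993 CPM in naive control, 1025, 1444 and 957 CPM in naive Vegfc-deficient, 253, 147 and 31.7 CPM in MI control and 235, 161 and 50.3 CPM in MI Vegfc-deficient libraries. Its log2 fold change was -2.88 (SE 0.74, edgeR adjusted p = 0.00886) in control and -2.94 (SE 0.70, edgeR adjusted p = 0.005) in Vegfc-deficient hearts, and M40 and M900 lay far under the other MI libraries. Without M38 the value in control hearts was -3.63. Pgam1 (ENSMUSG00000011752, chromosome 19), the general form, was at 3.99 and 3.57 CPM in naive control, 3.09, 3.03 and 5.88 CPM in naive Vegfc-deficient, 5.85, 3.82 and 4.55 CPM in MI control and 3.41, 5.14 and 5.62 CPM in MI Vegfc-deficient libraries and did not pass, with a log2 fold change of 0.33 (SE 0.36, edgeR adjusted p = 0.469) in control and 0.24 (SE 0.32, edgeR adjusted p = 0.542) in Vegfc-deficient hearts.

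The 3 enolases differed most. Eno3 (ENSMUSG00000060600, chr11:70657202-70662513, plus strand), the muscle enolase, was at 2475 and 2473 CPM (naive control) and 2278, 3052 and 1856 CPM (naive Vegfc-deficient). In MI hearts Eno3 was at 429, 309 and 47.3 CPM (MI control) and 557, 227 and 105 CPM (MI Vegfc-deficient). Eno3 fell with a log2 fold change of -3.24 (SE 0.81, edgeR adjusted p = 0.0079) in control and -3.01 (SE 0.77, edgeR adjusted p = 0.00694) in Vegfc-deficient hearts, a level 9.44-fold and 8.08-fold lower. M40, at 47.3 CPM, and M35, at 557 CPM, differed 11.8-fold, both in MI. The log2 fold change of Eno3 was -3.86 in control hearts without M38 and -3.85 in Vegfc-deficient hearts without M35. Eno2 (ENSMUSG00000004267, chromosome 6), the neuronal enolase, was at 4.08 and 4.19 CPM in naive control, 5.21, 3.03 and 4.22 CPM in naive Vegfc-deficient, 9.50, 15.1 and 28.5 CPM in MI control and 16.5, 8.90 and 9.06 CPM in MI Vegfc-deficient libraries. It rose with a log2 fold change of 2.10 (SE 0.48, edgeR adjusted p = 0.00529) in control and 1.45 (SE 0.41, edgeR adjusted p = 0.0125) in Vegfc-deficient hearts. Without M150 the adjusted p of Eno2 in Vegfc-deficient hearts was 0.0509 by edgeR. Eno1 (ENSMUSG00000063524, chromosome 4), the general enolase, was at 43.4 and 49.9 CPM in naive control, 31.7, 31.95 and 36.5 CPM in naive Vegfc-deficient, 35.6, 41.1 and 91.1 CPM in MI control and 26.03, 70.4 and 67.3 CPM in MI Vegfc-deficient libraries. The fold change of Eno1 did not pass at 0.26 (SE 0.45, edgeR adjusted p = 0.645) in control and 0.71 (SE 0.40, edgeR adjusted p = 0.151) in Vegfc-deficient hearts, with the 3 libraries of highest Eno1 all in MI (M40, M913 and M900) and the lowest (M35) in MI as well. Without M35 the change in Vegfc-deficient hearts passed (edgeR adjusted p = 0.0237). Pkm (ENSMUSG00000032294, chromosome 9), the pyruvate kinase whose muscle and general forms come from alternative exons that gene counts cannot tell apart, was at 495 to 698 CPM in naive and 269 to 495 CPM in MI libraries. Pkm changed by -0.86 (SE 0.22, edgeR adjusted p = 0.00913) in control and -0.29 (SE 0.20, edgeR adjusted p = 0.236) in Vegfc-deficient hearts on the log2 scale, and the call in control hearts was lost without M44 (edgeR adjusted p = 0.0635) and with scaling by library size alone (-0.42, edgeR adjusted p = 0.112).

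The balance of the lactate dehydrogenase subunits shifted. Ldhb (ENSMUSG00000030246, chr6:142490249-142507957, minus strand), the heart subunit, was at 1733 and 1618 CPM (naive control) and 1283, 1625 and 1220.3 CPM (naive Vegfc-deficient). After MI it was at 204, 193 and 52.1 CPM (MI control) and 365, 197 and 99.4 CPM (MI Vegfc-deficient). Its log2 fold change was -3.48 (SE 0.60, edgeR adjusted p = 0.00121) in control and -2.64 (SE 0.55, edgeR adjusted p = 0.00236) in Vegfc-deficient hearts, in control hearts an 11.2-fold lower level and the largest fall of the 39 genes there. Ldha (ENSMUSG00000063229, chromosome 7), the skeletal muscle and general subunit, was at 841 and 859 CPM in naive control, 777, 1012 and 715 CPM in naive Vegfc-deficient, 537, 367 and 398 CPM in MI control and 437, 440.5 and 399.8 CPM in MI Vegfc-deficient libraries. Ldha fell less, with a log2 fold change of -0.97 (SE 0.22, edgeR adjusted p = 0.00485) in control and -0.97 (SE 0.20, edgeR adjusted p = 0.00229) in Vegfc-deficient hearts. Per kilobase of exon, Ldhb made up 80.6% and 77.7% in naive control and naive Vegfc-deficient hearts and 42.1% and 52.2% in the 2 MI groups of the summed Ldhb and Ldha level. These shares depend on the length used. The exons of Ldha sum to 3310 bases, but its longest coding transcript has 1815, against 1570 and 1304 for Ldhb.

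All 4 genes of the pyruvate dehydrogenase complex on the list fell in both genotypes. Pdha1 (ENSMUSG00000031299, chromosome X), the X-linked E1 alpha subunit, was at 891 and 837 CPM in naive control, 799.6, 1035 and 735 CPM in naive Vegfc-deficient, 223, 203 and 129 CPM in MI control and 331, 210.3 and 164 CPM in MI Vegfc-deficient libraries. Pdhb (ENSMUSG00000021748, chromosome 14), the E1 beta subunit, was at 841 and 687 CPM in naive control, 756, 906 and 615 CPM in naive Vegfc-deficient, 195, 139 and 71.8 CPM in MI control and 201, 113 and 85.4 CPM in MI Vegfc-deficient libraries. For both, no MI library came within a factor of 2 of any naive library. Dlat (ENSMUSG00000000168, chromosome 9), the E2 acetyltransferase, was at 446 and 406 CPM in naive control, 433, 582 and 419 CPM in naive Vegfc-deficient, 101, 83.5 and 45.5 CPM in MI control and 141, 80.02 and 59.8 CPM in MI Vegfc-deficient libraries. Dld (ENSMUSG00000020664, chromosome 12), the E3 dehydrogenase that other mitochondrial complexes also use, was at 669.6 and 580.0 CPM in naive control, 718, 929.8 and 564 CPM in naive Vegfc-deficient, 207, 155 and 100.1 CPM in MI control and 218, 131 and 109 CPM in MI Vegfc-deficient libraries. The log2 fold changes in control hearts were -2.22 (SE 0.32, edgeR adjusted p = 0.000536) for Pdha1, -2.50 (SE 0.43, edgeR adjusted p = 0.00119) for Pdhb, -2.47 (SE 0.38, edgeR adjusted p = 0.000763) for Dlat and -2.02 (SE 0.36, edgeR adjusted p = 0.00141) for Dld. In Vegfc-deficient hearts they were -1.87 (SE 0.30, edgeR adjusted p = 0.000501), -2.51 (SE 0.40, edgeR adjusted p = 0.000526), -2.35 (SE 0.36, edgeR adjusted p = 0.000403) and -2.27 (SE 0.34, edgeR adjusted p = 0.000334). The kinases that switch the complex off fell too. Pdk1 (ENSMUSG00000006494, chromosome 2) was at 178 and 171 CPM in naive control, 191, 214 and 150.3 CPM in naive Vegfc-deficient, 76.04, 64.9 and 45.8 CPM in MI control and 74.9, 57.2 and 49.7 CPM in MI Vegfc-deficient libraries. Pdk2 (ENSMUSG00000038967, chromosome 11), abundant in heart, was at 157 and 169 CPM in naive control, 148, 147 and 128 CPM in naive Vegfc-deficient, 45.7, 30.7 and 20.9 CPM in MI control and 70.3, 38.02 and 26.2 CPM in MI Vegfc-deficient libraries. Pdk1 fell with a log2 fold change of -1.49 (SE 0.24, edgeR adjusted p = 0.000904) in control and -1.61 (SE 0.22, edgeR adjusted p = 0.000225) in Vegfc-deficient hearts. That of Pdk2 was -2.33 (SE 0.38, edgeR adjusted p = 0.00101) in control and -1.66 (SE 0.35, edgeR adjusted p = 0.00266) in Vegfc-deficient hearts.

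In glycogen turnover, the muscle phosphorylase fell and the liver phosphorylase did not. Pygm (ENSMUSG00000032648, chr19:6384399-6398459, plus strand), which releases glucose from glycogen in muscle, was at 769 and 873 CPM (naive control) and 508, 749 and 509.8 CPM (naive Vegfc-deficient). In MI hearts Pygm was at 118, 85.97 and 27.6 CPM (MI control) and 265, 99.9 and 58.4 CPM (MI Vegfc-deficient). Pygm fell with a log2 fold change of -3.41 (SE 0.65, edgeR adjusted p = 0.00206) in control and -2.06 (SE 0.59, edgeR adjusted p = 0.0126) in Vegfc-deficient hearts, and without M913 the adjusted p in Vegfc-deficient hearts was 0.0555 by edgeR. Without M35 the log2 fold change of Pygm in Vegfc-deficient hearts was -2.89. Pygb (ENSMUSG00000033059, chromosome 2), the brain form, also known from heart, was at 663 and 591 CPM in naive control, 626, 728 and 565 CPM in naive Vegfc-deficient, 244, 164 and 143 CPM in MI control and 264, 246 and 198 CPM in MI Vegfc-deficient libraries. It fell with a log2 fold change of -1.77 (SE 0.24, edgeR adjusted p = 0.000434) in control and -1.44 (SE 0.22, edgeR adjusted p = 0.000431) in Vegfc-deficient hearts. Pygl (ENSMUSG00000021069, chromosome 12), the liver form, was at 13.05 and 24.1 CPM in naive control, 24.8, 15.01 and 16.6 CPM in naive Vegfc-deficient, 35.7, 21.1 and 39.7 CPM in MI control and 45.1, 32.9 and 38.8 CPM in MI Vegfc-deficient libraries. On the log2 scale Pygl changed by 0.79 (SE 0.34, edgeR adjusted p = 0.0726) in control and 1.05 (SE 0.30, edgeR adjusted p = 0.0124) in Vegfc-deficient hearts, and without M150 the adjusted p in Vegfc-deficient hearts was 0.0517 by edgeR. Without M44 or M006 Pygl passed in control hearts as well (adjusted p = 0.0391 and 0.027 by edgeR). The difference between the genotypes in the response of Pygl did not pass, with an interaction log2 fold change of 0.25 (SE 0.44, edgeR adjusted p = 0.901). Gys1 (ENSMUSG00000003865, chromosome 7), the muscle glycogen synthase, was at 59.98 and 58.4 CPM in naive control, 54.8, 65.6 and 50.1 CPM in naive Vegfc-deficient, 19.3, 15.9 and 19.2 CPM in MI control and 38.5, 22.2 and 20.3 CPM in MI Vegfc-deficient libraries. Gbe1 (ENSMUSG00000022707, chromosome 16), the branching enzyme, was at 54.5 and 65.4 CPM in naive control, 65.997, 88.5 and 62.6 CPM in naive Vegfc-deficient, 28.2, 21.2 and 15.5 CPM in MI control and 42.5, 23.1 and 20.8 CPM in MI Vegfc-deficient libraries. The log2 fold change was -1.71 (SE 0.25, edgeR adjusted p = 0.000536) in control and -1.08 (SE 0.22, edgeR adjusted p = 0.00236) in Vegfc-deficient hearts for Gys1, and -1.47 (SE 0.32, edgeR adjusted p = 0.00412) in control and -1.33 (SE 0.30, edgeR adjusted p = 0.00339) in Vegfc-deficient hearts for Gbe1. All MI libraries lay below all naive libraries in both synthetic enzymes.

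Ratios within a library do not depend on the scaling between libraries. For 15 pairs of genes that serve the same step, the log2 ratio of the muscle or heart form to the other form was compared between MI and naive hearts with an exact permutation test, two-sided, over the 200 relabelings within genotype, whose smallest p is 0.005. The ratio was lower after MI in 14 of 15 pairs (adjusted p by exact permutation 0.00682 to 0.0268), and in 12 of them all MI libraries lay below all naive libraries. Slc2a4, Hk2, Pfkm, Eno3 and Pygm recur as the first gene of several pairs, so the pairs are not separate results. Ratios of muscle genes to genes outside these pairs were not taken. The widest shift was that of Eno3 to Eno2, which ran from 8.76 to 9.95 in the naive libraries and 0.73 to 5.50 in the MI libraries, a mean difference of -5.21 on the log2 scale (exact permutation p = 0.005, adjusted p = 0.00682). Aldoa to Aldoc ran from 12.22 to 13.08 in the naive libraries and 7.58 to 9.95 in the MI libraries, and Slc2a4 to Slc2a3 from 5.90 to 6.76 in the naive libraries and 0.04 to 4.19 in the MI libraries. Slc2a4 to Slc2a1 ran from 3.997 to 4.56 in the naive libraries and -1.85 to 2.52 in the MI libraries, with a mean difference of -3.77 on the log2 scale (exact permutation p = 0.005, adjusted p = 0.00682). From the mean levels per kilobase, Slc2a4 made up 94.6% and 95.3% in naive control and naive Vegfc-deficient hearts and 56.6% and 68.1% in the 2 MI groups of the sum with Slc2a1. For Pfkm with Pfkl the share of Pfkm was 93.9% and 94.4% in naive control and naive Vegfc-deficient hearts and 74.9% and 80.4% in the 2 MI groups. Hk2 to Hk1 ran from 0.93 to 1.55 in the naive libraries and -0.89 to -0.17 in the MI libraries, with a share of Hk2 of 74.9% and 79.1% in naive control and naive Vegfc-deficient hearts and 52.1% and 50.8% in the 2 MI groups. Such shares depend on the length used. The exons of Hk1 sum to 8532 bases, but its longest coding transcript has 4278, against 5969 and 5513 for Hk2. Which form is the larger after MI is therefore not settled, and shares by transcript length were not computed. Pgam2 remained the main mutase, at 99.8% and 99.9% in naive control and naive Vegfc-deficient hearts and 98.6% and 98.7% in the 2 MI groups, with the caution on shared sequence given for Pgam1. The ratio of Hk2 to Hk3 and that of Pygm to Pygb passed although the groups overlapped, but the former call was lost without M44, M150 or M900 and the latter without M45, M44, M38, M006, M40 or M150, with adjusted p of up to 0.0875 by exact permutation over fewer relabelings. The ratio of Eno3 to Eno1 did not pass without M45 (adjusted p = 0.0536 by exact permutation). The ratio of the kinases Pdk2 to Pdk1 did not pass, with a mean difference of -0.52 on the log2 scale (exact permutation p = 0.05, adjusted p = 0.05), and passed without M35 (adjusted p = 0.0107 by exact permutation).

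**Figure D3:**
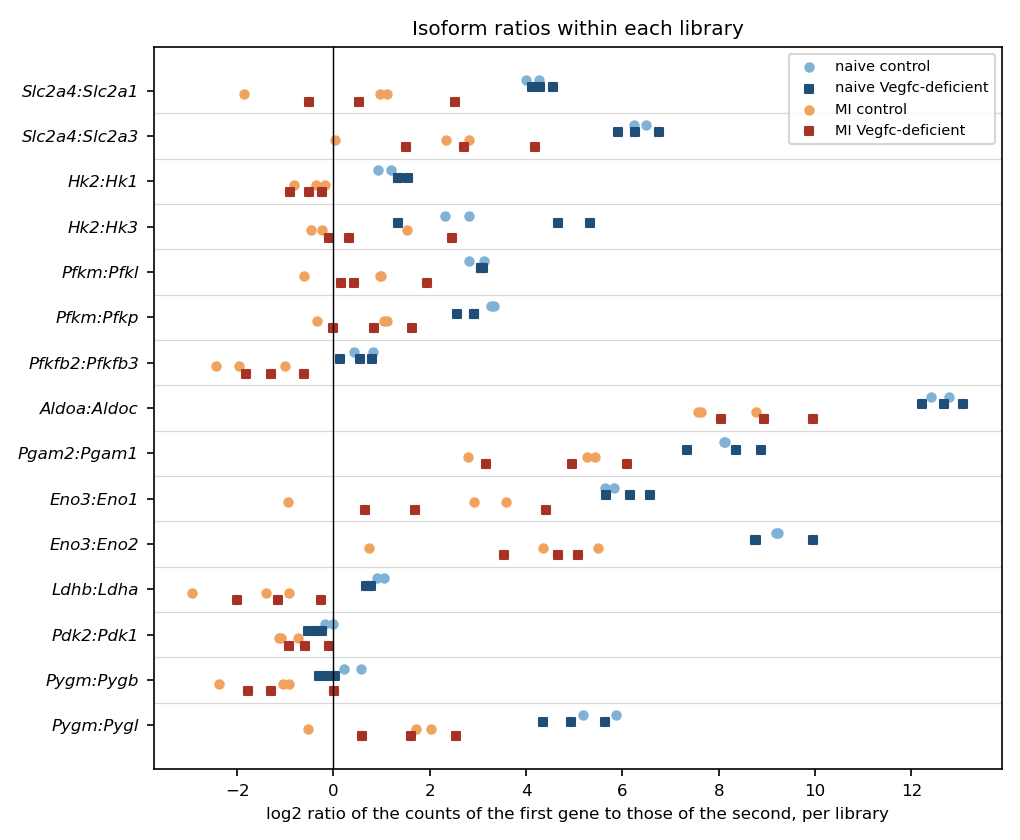
Log2 ratio of counts (x axis) of the muscle or heart form to another form of the same enzyme or transporter, for 15 pairs (y axis), 1 symbol per library, with naive libraries in blue and MI libraries in orange and red. In 12 pairs the MI and naive libraries are apart, and Eno3 to Eno2 shows the widest shift, -5.21 on average.

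Among the 6 MI libraries, many of the genes that fell were ordered at the ends as the cardiomyocyte markers were. Of the 23 genes lower in both comparisons, 14 were lowest in M40 and highest in M35 among MI libraries. This was the order of the cardiomyocyte marker sum at its ends. Over all 39 genes it was also 14 (35.9%), and over all genes tested it was 9.12%. The share among all genes lower in both comparisons was not computed. The median log2 fold change of the 12 cardiomyocyte markers was -3.13 in control and -2.59 in Vegfc-deficient hearts, with 12 and 11 of the 12 lower. In control hearts Eno3, Ldhb and Pygm fell by more than this median, and in Vegfc-deficient hearts Pfkfb1, Pgam2, Eno3 and Ldhb did. Set over the cardiomyocyte marker sum of the same library, as CPM per 1000 CPM of the sum, Slc2a4 was at 2.46 to 3.30 in the naive and 2.88 to 3.52 in the MI libraries. In the same unit Pygm was at 5.18 to 8.89 in the naive and 6.75 to 8.62 in the MI libraries, Ldhb at 13.1 to 16.5 in the naive and 11.7 to 16.3 in the MI libraries and Eno3 at 21.5 to 25.4 in the naive and 14.8 to 24.7 in the MI libraries. Relative to this sum 9 of the 23 genes overlapped between MI and naive libraries (Slc2a4, Pfkfb1, Pgam2, Eno3, Ldhb, Pdhb, Dlat, Dld and Pygm), 14 were higher in every MI library, and 0 were lower. Hk2 was at 1.88 to 2.21 in the naive and 2.51 to 8.78 in the MI libraries, Tpi1 at 9.19 to 10.4 in the naive and 12.6 to 115 in the MI libraries and Ldha at 7.73 to 8.75 in the naive and 14.1 to 124 in the MI libraries. The sum itself was 86251 to 120346 CPM in naive and 3197 to 31032 CPM in MI libraries. A gene that falls less than the sum is therefore higher in this unit by construction. Gapdh, which passed in neither comparison, was at 0.036 to 0.088 in the naive and 0.157 to 1.85 in the MI libraries, while Hk3 overlapped. The share over all genes was not counted. This division by the marker sum was chosen after the data were seen and is a description with no test.

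**Figure D4:**
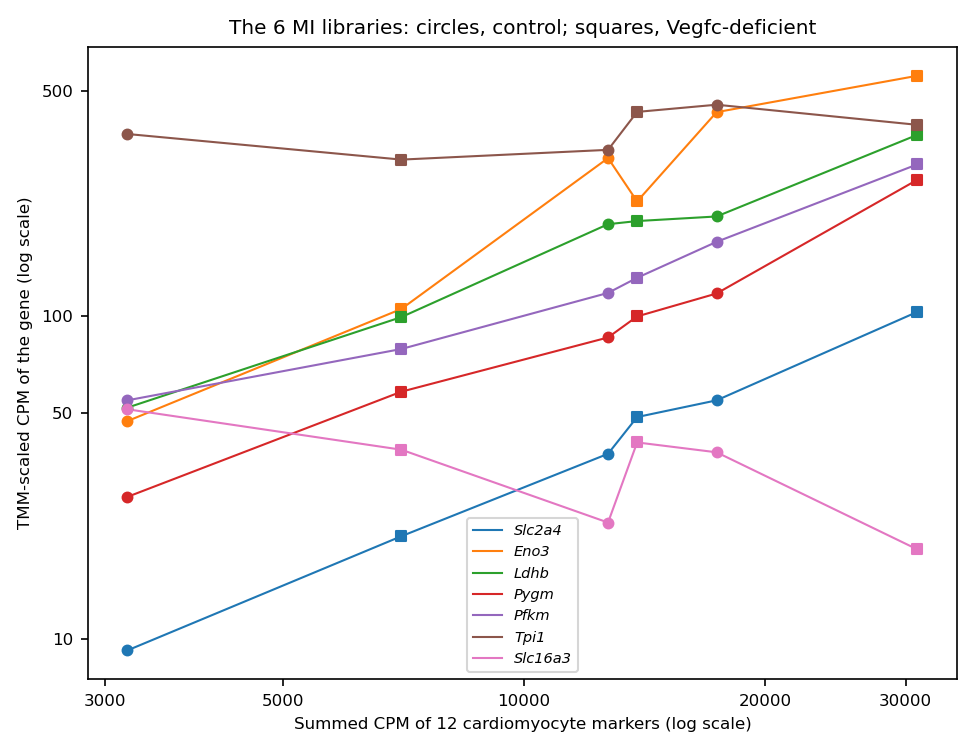
Level of 7 genes (y axis, log scale, TMM-scaled CPM) against the summed CPM of 12 cardiomyocyte markers (x axis, log scale) in the 6 MI libraries, with lines joining the libraries of each gene. Slc2a4 runs from 9.21 CPM in M40 to 103 CPM in M35, Tpi1 stays within 306 to 453 CPM, and Slc16a3 is highest in M40 and lowest in M35.

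Markers of other cells moved with MI beside the genes that rose. Summed fibroblast markers were at 4786 to 6674 CPM in naive and 29886 to 47496 CPM in MI libraries, with 5 and 6 of 7 markers higher in control and Vegfc-deficient hearts. Smooth muscle markers went from 141 to 275 CPM to 575 to 2429 CPM (4 of 4 higher in both), and proliferation markers from 29.2 to 44.8 CPM to 105 to 267 CPM (4 of 4 in both). Macrophage markers were at 1448 to 2213 CPM in naive and 1950 to 4735 CPM in MI libraries (4 of 8 higher and 1 lower in both), and neutrophil markers at 20.3 to 110 CPM and 36.0 to 346 CPM (0 and 1 of 5 higher). Endothelial markers were at 780 to 1204 CPM and 491 to 1005 CPM, with 2 of 6 lower in control hearts and 1 higher and 1 lower in Vegfc-deficient hearts. Red cell markers were at 1092 to 4383 CPM and 309 to 1375 CPM, with 0 and 5 of 5 lower. Summed skeletal muscle markers were at 9.42 to 15.1 CPM in naive and 9.40 to 24.6 CPM in MI libraries, with 2 of 5 tested higher (Tnnt3 and Pvalb) and 1 lower (Mylpf) in both. Adipocyte and lung epithelium markers summed to at most 9.06 and 2.55 CPM, with 0 of 2 called and 1 of 2 higher and 1 lower in both. The part of these cell types in the rise of Slc2a3, Pfkfb3, Pfkfb4, Aldoc, Eno2 and Slc16a3 was not tested.

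The loss of Vegfc in myeloid cells was the study's question, and none of the 39 genes passed in it. Between Vegfc-deficient and control MI hearts 0 of the 39 genes passed by edgeR (0% of all genes tested), 2 had an unadjusted p under 0.05, and DESeq2 called 0 of the 39 and 58 of all genes (0.392%). The median log2 fold change was 0.088, with a range of -0.70 (Aldoc) to 0.87 (Pygm). Gys1 was higher in all 3 Vegfc-deficient MI libraries, at 38.5, 22.2 and 20.3 CPM against 19.3, 15.9 and 19.2 CPM, with a log2 fold change of 0.57 (SE 0.22, edgeR adjusted p = 0.598). Its unadjusted edgeR p was 0.0277, and without M35, the highest of the 6, the log2 fold change was 0.23. Pgk1 was lower in all 3, at 14.4, 16.9 and 15.5 CPM against 22.8, 17.5 and 21.5 CPM, with a log2 fold change of -0.40 (SE 0.17, edgeR adjusted p = 0.608) and an unadjusted edgeR p of 0.0341. Pfkfb2 came next, with a log2 fold change of 0.47 (SE 0.23, edgeR adjusted p = 0.657), and M35 lay above the other 5 MI libraries. Without M35 that of Pfkfb2 was 0.18. The 95% interval of the log2 difference was 0.08 to 1.07 for Gys1, -0.77 to -0.04 for Pgk1 and -0.05 to 0.99 for Pfkfb2, and it was widest for Hk3, at -2.46 to 1.37. The groups did not overlap in 3 of the 39 genes (Gys1 higher, Slc2a3 and Pgk1 lower), beside 12.1% of all genes. None of the 15 isoform ratios differed by genotype in MI hearts, where 3 libraries against 3 cannot give an exact permutation p under 0.1. In the same comparison the median log2 fold change of the cardiomyocyte markers was 0.64, positive for 12 of 12 markers, of which 0 passed, and their part in these values was not tested.

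**Figure D5:**
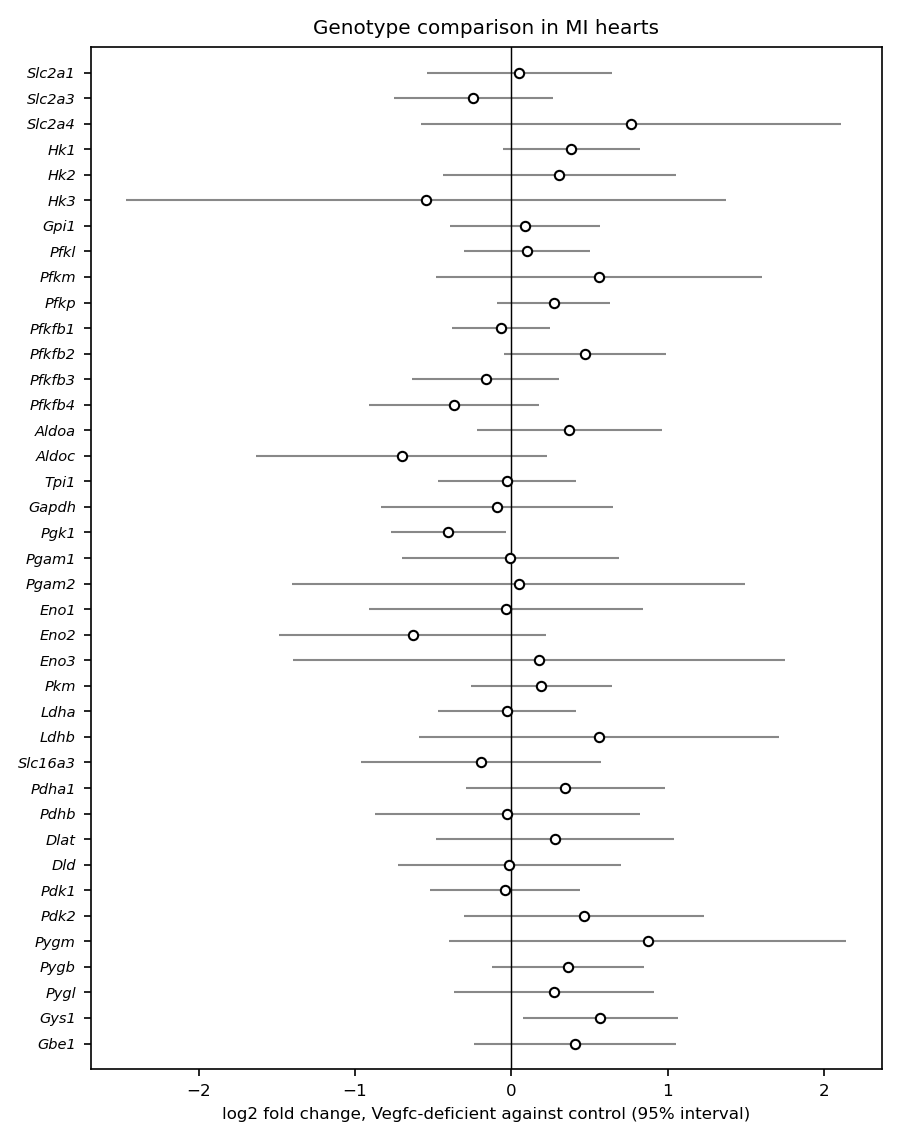
Log2 fold change of Vegfc-deficient against control MI hearts (x axis) for each of the 39 genes (y axis), with the 95% interval from edgeR as a line. The interval excludes 0 for Gys1 and Pgk1 alone, and 0 genes had an adjusted p under 0.05.

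In naive hearts 0 of the 39 genes passed between genotypes by edgeR (0% of all genes), 0 had an unadjusted p under 0.05, and DESeq2 called 0 of the 39 and 14 of all genes (0.0947%). Over all genes limma-voom called 6, and edgeR called 17 without M149, with 0 of the 39 among them in either. The median log2 fold change was -0.0094. The groups did not overlap in 8 of the 39 genes (Pfkp and Pfkfb1 higher, Hk1, Pfkm, Eno1, Pkm, Pdk2 and Pygm lower in Vegfc-deficient hearts), beside 22.4% of all genes with 2 libraries against 3. The interaction of MI and genotype was called for 0 of the 39 genes by edgeR and by DESeq2 (0% of all genes by edgeR and 0.359% by DESeq2), and 2 had an unadjusted p under 0.05. These were Pgk1, with an interaction log2 fold change of -0.60 (SE 0.25, edgeR adjusted p = 0.569), and Hk1, with 0.67 (SE 0.30, edgeR adjusted p = 0.599). The calls of Hk1, Pkm, Slc2a1 and Pygl in a single genotype are thus not shown to differ between genotypes.

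Promoter sequence was read for genes that moved together, because several of the genes that rose are known targets of hypoxia-inducible factors. RefSeq promoters (GRCm38.p6) were matched for 37 of the 39 genes, Slc2a3 and Slc2a4 being the exceptions, and the 250 bases before each start were searched on both strands for ACGTG or GCGTG, the core of the hypoxia response element. An E-box, CACGTG, holds ACGTG on both strands, so the motifs overlap. Below are 70-base stretches that touch no annotated exon, 5′ to 3′ on the strand of the gene, with the core motifs in capitals, from Slc16a3 and Pfkfb3, which rose, and from Ldha, which fell and had the most core motifs of the 3.
Slc16a3: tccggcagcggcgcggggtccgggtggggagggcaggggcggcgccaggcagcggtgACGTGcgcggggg
Pfkfb3: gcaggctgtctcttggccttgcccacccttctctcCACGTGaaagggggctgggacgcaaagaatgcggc
Ldha: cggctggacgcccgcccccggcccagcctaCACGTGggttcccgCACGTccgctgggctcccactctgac
The stretches lie at chr11:120948983-120949052 on the plus strand, chr2:11502109-11502178 on the minus strand and chr7:46845726-46845795 on the plus strand. Each lies inside the annotated span of its gene (for Ldha chr7:46841475-46855627), before a start other than the outermost one. Where a gene had several promoters, the stretch with the most core motifs over all of them was printed. The core was in 39 of 56 promoters of the 37 genes (69.6%), in 6 of 7 promoters of the genes higher in both comparisons (85.7%), in 21 of 35 promoters of those lower in both (60.0%), and in 38.6% of all 32851 promoters. The E-box was in 5 of 56 (8.93%), 1 of 7 (14.3%), 4 of 35 (11.4%) and 6.02% of all promoters. Genes that rose and genes that fell both hold the core, and a match is a description of the sequence and not a site.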

How the data were processed

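RNA-seq counts of 11 left ventricle libraries were used. The values deposited by the authors are unnormalized read counts, 1 per Ensembl gene. The submitters' processing notes name cutadapt 1.13, STAR, HTSeq 0.6.1p1, DESeq2 1.14.1 and mm10. Each file held 25006 genes and no summary rows, and 24991 were matched to GENCODE M21 (GRCm38). The 13 genes of the mitochondrial genome had 0 counts.

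The members and lists were chosen with earlier results of these data known. Groups came from the labels. Counts were fitted in 1 edgeR 4.0.16 quasi-likelihood model of all 11 libraries (R 4.3.3, filterByExpr, TMM), so that the 2 naive control libraries share the estimate of spread, and p-values were adjusted by Benjamini-Hochberg over 14779 genes at 0.05. P-values measure the spread between mice of this series. Isoform ratios used log2 counts with a pseudocount of 0.5 and exact permutation tests (Python 3.11.15), adjusted over 15 pairs. Per-kilobase levels divide CPM by the summed exon length of the gene over all its annotated transcripts, and the shares of a pair depend on this choice.

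All 39 genes were named, with values in every library for those called in either MI comparison with a log2 change of 1 or more in size, for pairs described, for Gapdh and for the 3 smallest p in the genotype comparison of MI hearts; outside them, 3 of the 5 called pathway genes with the largest change in control hearts were named. Hif1a, Pdk3 and Adpgk were named after their values were seen.

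Alternatives were DESeq2 1.42.0, limma 3.58.1 (voom with quality weights), other scalings, filters and thresholds, fits of only the groups compared, and fits without each library in turn. How the authors' HTSeq step treated strand and reads with several matches is not given in the sources used here. The edgeR fit was tested on simulated data with 200 changed genes: at a fold of 4 for MI against naive in control hearts it recovered 151, with 7 false calls, over 14639 genes, and at a fold of 2 it recovered 11 over 14661. For the genotype comparison in MI hearts it recovered 170 at a fold of 4 over 14666 genes and 68 at a fold of 2 over 14646. In the measured libraries 7450 of 14779 genes were called for MI in control hearts. Recovery and scaling with that many changed genes was not tested. Some genes counted in the lists are not reported by name here.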

Additional observations from a re-analysis of the deposited data

How the results depend on the processing

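The number of the 39 genes called ran from 26 to 33 over 22 alternatives for MI in control hearts and from 24 to 34 for MI in Vegfc-deficient hearts, and from 28 to 33 and 26 to 32 when 1 library was left out. Over all genes the number called ran from 4550 to 9009 in control and from 4965 to 9880 in Vegfc-deficient hearts. When 1 library was left out it ran from 4574 to 7636 and from 6909 to 8564. Of the 39 genes, 0 were called in the genotype comparisons and the interaction under every alternative run. Beside this, 0 to 58 of all genes were called between genotypes in MI hearts, 0 to 17 in naive hearts and 0 to 53 for the interaction. No called gene changed direction in 682 combinations of gene and alternative in either genotype. The stricter thresholds reuse the main fit and cannot change a direction. Leaving out a library of the other genotype acts only through the shared filter, scaling and spread. In control hearts 25 of 31 kept their call in every alternative, and in Vegfc-deficient hearts 21 of 31. The isoform count ran from 12 to 15 of 15. Scaling by library size alone moved the median log2 fold change of all genes by 0.45 in control and 0.50 in Vegfc-deficient hearts, and calls that were higher from 52.1% to 76.2% in control hearts; upper-quartile factors moved it by 0.10.

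Reversals concerned genes that had not passed. With library size alone, the log2 fold change in control hearts was 0.15 for Pfkp and 0.10 for Gapdh, and in Vegfc-deficient hearts 0.37 for Hk1, 0.39 for Hk3, 0.44 for Pfkl, 0.17 for Pfkp and 0.21 for Pkm. Voom gave -0.18 for Hk3 in control and 1.47 in Vegfc-deficient hearts, and upper-quartile factors gave 0.044 for Hk3 and 0.041 for Pfkl in the latter. Leaving out 1 library gave -0.50 to 0.68 for Hk3 and -0.28 to 0.44 for Eno1 in control hearts, -0.53 to 1.98 for Hk3 and -0.24 to 0.042 for Pfkl in Vegfc-deficient hearts, and -2.28 to 0.23 for Hk3 between naive genotypes. The cause was not tested.

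No paired analysis was possible because the libraries carry mouse identifiers that no groups share. Depth limits Aldoc, whose naive libraries hold 2 to 5 counts.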

Other observations

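Outside the 39 genes, a list of 57 further genes of glucose transport, pyruvate handling, gluconeogenesis and glycogen turnover was counted, of which 48 were tested. In control hearts 27 were lower and 6 higher after MI, so that 68.8% were called beside 50.4% of all genes, with a median log2 fold change of -0.95. In Vegfc-deficient hearts 28 were lower and 7 higher, 72.9% beside 57.6% of all genes, with a median of -0.96. Among those that fell, Fbp2, the muscle fructose-1,6-bisphosphatase of gluconeogenesis, was at 31.7 and 37.995 CPM in naive control, 35.4, 31.8 and 20.4 CPM in naive Vegfc-deficient, 2.54, 1.99 and 0.294 CPM in MI control and 6.76, 0.994 and 0.755 CPM in MI Vegfc-deficient libraries, and changed by -4.44 (SE 0.88, edgeR adjusted p = 0.00253) in control and -3.42 (SE 0.81, edgeR adjusted p = 0.00486) in Vegfc-deficient hearts. Ldhd, a mitochondrial D-lactate dehydrogenase, changed by -2.82 (SE 0.49, edgeR adjusted p = 0.00132) in control and -2.21 (SE 0.46, edgeR adjusted p = 0.00227) in Vegfc-deficient hearts, and Mpc2, a subunit of the mitochondrial pyruvate carrier, by -2.56 (SE 0.45, edgeR adjusted p = 0.00141) in control and -2.78 (SE 0.43, edgeR adjusted p = 0.000433) in Vegfc-deficient hearts. Among those that rose, Pdk3, a pyruvate dehydrogenase kinase, went from 7.89 to 10.6 CPM to 18.8 to 27.6 CPM, with a log2 fold change of 1.25 (SE 0.19, edgeR adjusted p = 0.000741) in control and 1.26 (SE 0.17, edgeR adjusted p = 0.000205) in Vegfc-deficient hearts, opposite in direction to Pdk1 and Pdk2. Adpgk, an ADP-dependent sugar kinase known from immune cells, rose by 1.06 (SE 0.28, edgeR adjusted p = 0.00986) in control and 1.42 (SE 0.25, edgeR adjusted p = 0.000828) in Vegfc-deficient hearts.

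Of 16 hypoxia-inducible factor genes and hypoxia-responsive genes, 3 were higher and 7 lower after MI in control hearts (median log2 fold change -0.034), and 5 were higher and 8 lower in Vegfc-deficient hearts (median -0.51). These are 62.5% and 81.2% called, beside 50.4% and 57.6% of all genes. Hif1a was at 64.1 and 59.5 CPM in naive control, 66.5, 63.8 and 77.2 CPM in naive Vegfc-deficient, 143, 124 and 143 CPM in MI control and 136, 142 and 185 CPM in MI Vegfc-deficient libraries, with a log2 fold change of 1.15 (SE 0.17, edgeR adjusted p = 0.000615) in control and 1.16 (SE 0.15, edgeR adjusted p = 0.000157) in Vegfc-deficient hearts and no overlap between MI and naive libraries. Between genotypes in MI hearts 0 of the 48 and 0 of the 16 passed by edgeR, with 3 of each at an unadjusted p under 0.05. In naive hearts 0 of each passed, with 1 and 0 at an unadjusted p under 0.05. For the interaction 0 of each passed, with 3 and 1.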
